A study of Homo sapiens with 24 samples.

Results

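The ADAM metalloproteases described here were 9 genes, namely ADAM8, ADAM9, ADAM10, ADAM12, ADAM15, ADAM17, ADAM19, ADAM22 and ADAM28. They were chosen by name and matched by symbol, 9 of 9, among the 58051 genes with a value in 24 RNA-seq libraries. The libraries came from HT29, HCT116 and SW480, established human colorectal carcinoma cell lines whose WNT pathway is switched on by mutation. HT29 and SW480 cells carry inactivating mutations of APC, and HCT116 cells carry a gain-of-function mutation of CTNNB1, the gene that codes for β-CATENIN. Each line was represented by 2 KO clones and 2 WT clones, and each clone by a library of round A and one of round B, which gave 4 KO and 4 WT libraries per line. In KO clones CRISPR/Cas9 had deleted exon 7 from both CTNNB1 alleles, and the WT clones were subclones of the same CRISPR/Cas9 experiments in which CTNNB1 was left unedited, so that WT means not edited and does not mean free of the mutations of the parental line. The clones were 11 and 40 (WT) and 28 and 38 (KO) for HT29, 4 and 6 (WT) and 44 and 47 (KO) for HCT116, and 4 and 5 (WT) and 17 and 21 (KO) for SW480. The question was which of the ADAM genes differed between KO and WT within each line and within its clones, and whether ADAM19 was alone in being lower.

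ADAM proteins are membrane-anchored proteases with a prodomain, a zinc-dependent metalloprotease domain and a disintegrin domain. They are best known as sheddases, which cut growth factors, cytokines, receptors and adhesion molecules from the cell surface, and in the intestinal epithelium ADAM10 and ADAM17 supply the cuts for NOTCH signaling and for the release of EGF receptor ligands. Their activity is controlled by removal of the prodomain through furin-like convertases, by tetraspanins and iRhoms that carry the proteases through the secretory pathway, and by tissue inhibitors of metalloproteases. β-CATENIN acts with TCF/LEF proteins at WNT target genes, of which AXIN2 is the standard readout.

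The libraries held 22297049 to 29068378 reads on genes, with a median of 27486226. A normalized count is a deposited value, that is, the reads of a gene scaled by the size factor of its library. CTNNB1 itself ran from 5883 to 12800 in the WT libraries of HT29 and HCT116 and from 43114 to 50939 in those of SW480, against 187 to 337 in the KO libraries of HT29 and HCT116 and 839 to 1312 in those of SW480, so every library carried the level its label calls for. The cells expressed KRT8, KRT18, EPCAM and CDH1 in every line, CDH1 least in SW480, but other markers of colorectal epithelium were near 0 in some lines, namely CDX2 in HT29, VIL1 and, in KO cells, KRT20 in HCT116, and KRT20 in SW480. Some also moved with genotype, since CDX2 was called lower in SW480 KO cells (1097 ± 263 to 106 ± 55.8) and KRT20 higher in HT29 KO cells (3669 ± 2192 to 16524 ± 4968; SD, n = 4 each). The summed normalized counts of 6 fibroblast markers were 13.2 to 23.0 in HT29 WT and 109 to 1210.3 in HT29 KO libraries, mostly through LUM, with DCN at 0. This sum was 287 to 439 in WT and 324 to 386 in KO libraries of HCT116, and 151 to 399 and 135 to 202 in SW480. The sum of 5 immune markers was 52.4 to 69.7 in SW480 WT and 173 to 254 in SW480 KO libraries through CD14 and LYZ, with PTPRC and CD3E near 0. In HT29 the immune sum was far higher, at 23398 to 27682 in WT and 17662 to 31381 in KO libraries, with 3 of the 5 genes under 10 in every library. The sum of the 2 endothelial markers matched was 9.65 to 27.4 in SW480 WT and 116 to 234 in SW480 KO libraries through VWF, with CDH5 near 0. In HCT116 the sums of these 3 lists overlapped between WT and KO. The part of these genes in the results was not tested. Among the libraries, HT29 KO 38B differed from KO 38A of the same clone by gene length, with a median log2 difference of 0.55 among the 3697 genes with the shortest exons and -0.38 among the 3693 with the longest, whereas the values for KO 28B against KO 28A were -0.15 and 0.10. In HCT116 KO 47A 35449 genes had a read, against 20256 to 24944 in the other 23 libraries. The KO against WT differences of some members are given below with and without these 2 libraries. Differences between clones and values of the genes in the lists are given with all libraries only.

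ADAM19, also called meltrin β, is a sheddase known for cutting neuregulins and for its part in heart development. Its gene (ENSG00000135074) lies on chromosome 5 of GRCh37, the build of all gene positions given here, from 156822542 to 157002783 on the minus strand. The 250 bases before its RefSeq start are shown because ADAM19 carried the main difference of the family. They are taken from GRCh38.p14, chr5:157575776-157576025, minus strand, read 5′ to 3′.

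ADAM19 upstream: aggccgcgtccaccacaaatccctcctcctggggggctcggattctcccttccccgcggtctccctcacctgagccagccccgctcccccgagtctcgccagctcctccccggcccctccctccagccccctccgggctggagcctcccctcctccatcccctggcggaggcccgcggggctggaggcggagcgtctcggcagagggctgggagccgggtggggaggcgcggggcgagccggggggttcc

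The stretch from 250 bases before to 50 bases after the start was searched on both strands for CTTTGAT and CTTTGAA, sequences that TCF/LEF proteins bind. RefSeq promoters were at hand for 7 of the 9 genes, all but ADAM9 and ADAM28, and 0 of these 7 held either motif. Over all 35116 promoters of the same length 2.62% held CTTTGAT, 4.43% CTTTGAA and 6.86% either. The promoters of the 7 genes were rich in G and C, from 66.3% to 79.3% of bases. The absence of these letters from a window of this size describes the window and nothing else.

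ADAM19 was the member with the large and shared difference. In HT29 its normalized counts were 3591, 2509.8, 4929 and 3419 in WT 11A, 11B, 40A and 40B, against 555, 479, 1129 and 629 in KO 28A, 28B, 38A and 38B. In HCT116 they were 3381, 2680.3, 857 and 511 in WT 4A, 4B, 6A and 6B, against 249, 138, 96.3 and 52.3 in KO 44A, 44B, 47A and 47B. In SW480 they were 5971, 6245, 6309.9 and 6916 in WT 4A, 4B, 5A and 5B, against 1034, 1069, 1199.9 and 1284 in KO 17A, 17B, 21A and 21B. All KO libraries lay below all WT libraries of their line. In RNA from a bulk culture, fewer cells that express a gene and less of its RNA per cell cannot be told apart. The mean of HT29 went from 3612 ± 998 (SD, n = 4) to 698 ± 294 (SD, n = 4), that of HCT116 from 1857 ± 1392 (SD, n = 4) to 134 ± 84.1 (SD, n = 4), and that of SW480 from 6361 ± 398 (SD, n = 4) to 1147 ± 116 (SD, n = 4).

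On the scale of log2(normalized count + 1) the difference KO minus WT was -2.41 (SE 0.30, 95% interval -3.09 to -1.73) in HT29, a 5.32-fold decrease with an adjusted p of 0.0043. In HCT116 it was -3.61 (SE 0.71, 95% interval -5.26 to -1.96), a 12.2-fold decrease with an adjusted p of 0.016. In SW480 it was -2.47 (SE 0.084, 95% interval -2.66 to -2.29), a 5.56-fold decrease with an adjusted p of 8.6e-09. The narrow interval in SW480 goes with libraries that differed little within a genotype, and the wide one in HCT116 with WT clones that differed from each other. A gene was called when its adjusted p was under 0.05 and its absolute log2 fold change over 1, and by this rule 0.402% of 14921 genes tested were lower in HT29, 1.89% of 15404 in HCT116 and 6.76% of 16325 in SW480. Counted in either direction these shares were 2.3%, 5.06% and 17.5%. An order with every KO library under every WT library was found for 4.71%, 9.61% and 20.9% of the genes. Ordered from the lowest log2 fold change, ADAM19 was gene 88 in HT29, 40 in HCT116 and 360 in SW480. Of the 13028 genes tested in all 3 lines, limma called 4 (0.0307%) lower in each of them, and these were CTNNB1, ADAM19 and the WNT target genes AXIN2 and TCF7. This set depends on the test. The paper, which used DESeq2 at the same thresholds, names ADAM19, NR2F1 and BMP4 beside CTNNB1 and AXIN2 as lower in all 3 lines. In limma BMP4 missed the adjusted p in HT29 (-1.19, adjusted p 0.088). The calls for all 3 lines were made with the rounds of a clone as separate samples. With the rounds averaged, 2 clones against 2, the adjusted p of ADAM19 was 0.36 for HT29, 0.32 for HCT116 and 0.00048 for SW480, at log2 fold changes of -2.40 and -3.57 in HT29 and HCT116.

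No other member was called lower in any line. In all, 22 comparisons of a member in a line passed the filter on low values, and 5 did not. Of the 19 comparisons of genes other than ADAM19, limma called 0 lower, also at an adjusted p under 0.05 alone, where 0.476%, 5.93% and 22.1% of all genes were lower in HT29, HCT116 and SW480. At an unadjusted p under 0.05, 1 of these 19 was lower, namely ADAM22 in HT29. edgeR called 0 of the other members lower in any line. DESeq2 also called 0, although ADAM22 in HT29 (log2 fold change -0.98, adjusted p 0.0017) passed its p and missed the threshold on the fold change. In HT29 1 of 8 members tested was called lower and 0 higher, beside 1.9% of all genes higher, and their median log2 fold change was -0.11 beside 0.03 over all genes tested. In HCT116 1 of 7 members was called lower and 0 higher, beside 3.17% of all genes higher, with a median of 0.11 beside -0.01. In SW480 1 of 7 was called lower and 1 higher, ADAM9, where 10.7% of all genes were called higher, and the median was 0.31 beside -0.0042. At an adjusted p under 0.05 alone 0 members were higher in HT29 and HCT116, beside 2.08% and 8.05% of all genes, and 4 were higher in SW480, beside 26.1%. In HCT116 the count depended on the filter, since with no filter on low values ADAM15 (0.49, adjusted p 0.0037) and ADAM9 (0.35, adjusted p 0.037) passed in limma. ADAM19 lost its call in HCT116 in that setting (-3.61, adjusted p 0.06). Without ADAM19 the medians of the members were 0.20, 0.18 and 0.39. Members that passed the filter only through 1 genotype would have had to differ, so these counts describe the genes tested and do not cover ADAM12 and, in HCT116 and SW480, ADAM28.

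**Figure D1:**
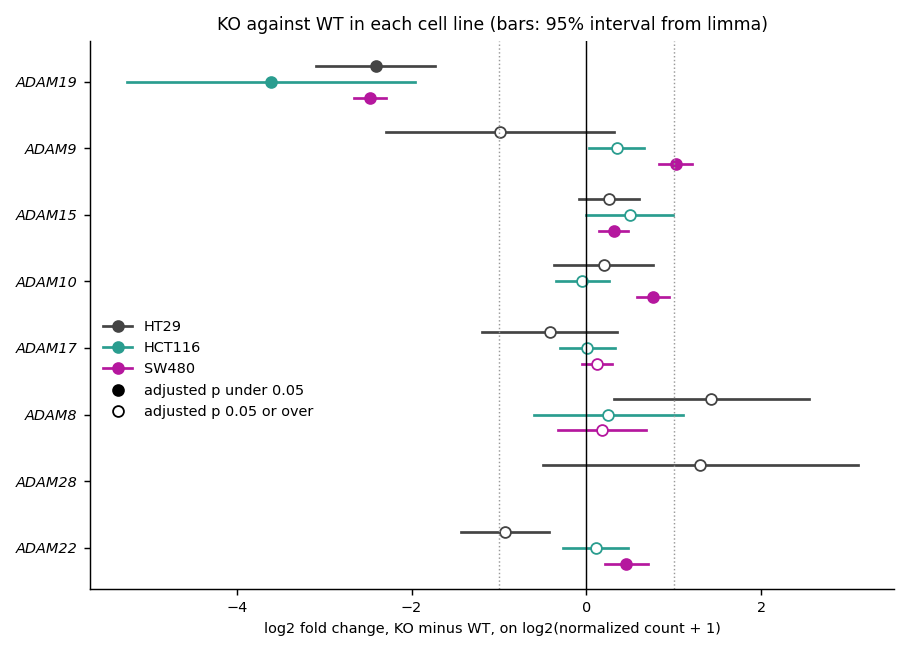
Log2 fold change KO minus WT (point) with its 95% interval from limma (bar) for each ADAM gene tested, by cell line, with filled points where the adjusted p was under 0.05 and dotted lines at the fold change threshold of 1 in either direction. ADAM19 stands at -2.41, -3.61 and -2.47 in HT29, HCT116 and SW480, and the remaining genes lie between -0.98 and 1.43.

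Between clones of the same genotype ADAM19 was not uniform. Each of the 4 pairs of a KO and a WT clone showed less ADAM19 in the KO clone, in each line. The differences of the clone means ran from -3.01 to -1.79 in HT29, from -5.33 to -1.82 in HCT116 and from -2.65 to -2.30 in SW480. The spread was widest in HCT116, where WT clone 6 minus WT clone 4 was -2.18 on the log2 scale (95% interval -2.97 to -1.40, adjusted p 0.01) and KO clone 47 minus KO clone 44 was -1.37 (adjusted p 0.045). ADAM19 was the only member called in these comparisons, where 1.44% and 3.28% of all genes were called, or 2.61% and 7.16% by the adjusted p alone. Same-round libraries of HCT116 deviated together, and with the round as a block ADAM8 was also called in WT clone 6 against clone 4 (-1.20, adjusted p 0.039). For CTNNB1 the difference between WT clones 6 and 4 was -0.17 and did not pass (adjusted p 0.57). In SW480 KO clone 21 exceeded KO clone 17 by 0.24 (adjusted p 0.024), and CTNNB1 was also higher in clone 21, by 0.52 (adjusted p 0.00013). In SW480 0 members were called between clones, beside 1.97% of all genes for WT and 4.61% for KO clones, and by the adjusted p alone 8.88% and 28% passed. In HT29 KO clone 38 and KO clone 28 differed by 0.71, which did not pass the test (adjusted p 0.17). These tests of clones take their error from the rounds only. Leaving out single clones changed the call in 2 cases, since the adjusted p was 0.0502 in HT29 without WT clone 40 and 0.096 in HCT116 without KO clone 47. Without the library KO 47A the HCT116 call held at -3.52 (adjusted p 0.047), and without KO 38B the HT29 call held at -2.39 (adjusted p 0.013).

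ADAM19 also differed between the rounds of a clone. Round B was below round A in 4 of 4 clones of HT29, by -0.84 to -0.21 on the log2 scale, and in 4 of 4 clones of HCT116, by -0.87 to -0.33. The -0.84 was that of HT29 KO clone 38. Its library 38B had a median difference of -0.38 from 38A among the genes with the longest exons, to which ADAM19 belongs. The share of all genes with such an order was not counted, and a part of the round in these values was not tested. In SW480 0 of 4 clones were lower in round B, and the differences were 0.05 to 0.13. The direction was shared by WT and KO clones and the size varied between clones, and within each round the KO clones of a line stayed below its WT clones.

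**Figure D2:**
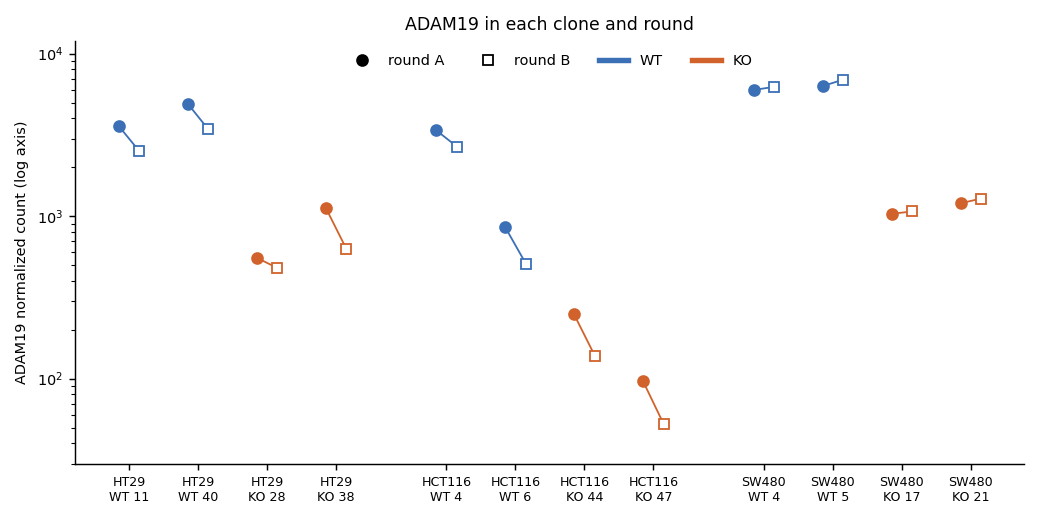
ADAM19 normalized count (log axis) in each clone, with round A as filled circles and round B as open squares, WT in blue and KO in orange. In HCT116 the WT clones stand apart (3381 and 2680.3 in clone 4, 857 and 511 in clone 6), and all clones of HT29 and HCT116 are lower in round B.

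ADAM12, or meltrin α, is the closest relative of ADAM19 among the genes described and is known as a protease of insulin-like growth factor binding proteins. The gene (ENSG00000148848) lies on chromosome 10 (127700950 to 128077046, minus strand). It was almost silent in these cells, with 0 to 4.02 normalized counts in HT29, 0 to 9.63 in HCT116 and 0 to 4.04 in SW480. The highest value, 9.63, was that of HCT116 KO 47A, the library with the most genes detected. The gene did not pass the filter in any line, and with no filter it was not called (adjusted p 0.99, 0.45 and 0.12 for HT29, HCT116 and SW480). In SW480 the 4 WT libraries held 12 reads together and the 4 KO libraries 3, with 1 to 4 reads in each WT library and 0 to 1 in each KO library.

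Among the widely expressed sheddases, ADAM10 cuts NOTCH receptors, E-cadherin and CD44, and ADAM17 is the converting enzyme of TNF and of several EGF receptor ligands. ADAM17 (ENSG00000151694, chromosome 2, 9628615 to 9696861, minus strand) did not pass the test in any line. In HT29 its WT mean was 1338 ± 212 and its KO mean 1081 ± 455 (SD, n = 4 each). The means were 1069.8 ± 90.8 and 1091 ± 220 for HCT116 (SD, n = 4 each), and 1086 ± 41.5 and 1184 ± 103 for SW480 (SD, n = 4 each). The KO minus WT differences were -0.42, 0.01 and 0.12 (adjusted p 0.56, 0.97 and 0.22), with 95% intervals of -1.19 to 0.36, -0.31 to 0.33 and -0.05 to 0.30. The HT29 value rests on library KO 38B, which had 478 normalized counts beside 999.8 to 1517 in the other KO libraries, and it was -0.07 without it. About 10.3% of the exon length of ADAM17 is shared with IAH1 on the opposite strand, and since the library kit does not keep strand, reads of this stretch cannot be told apart.

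ADAM10 (ENSG00000137845, chromosome 15, 58881008 to 59041990, minus strand) differed in SW480 only by the adjusted p. Its normalized counts there were 2767, 3031, 2568 and 2781 in WT 4A, 4B, 5A and 5B, and 4275, 4411, 5155 and 5130.3 in KO 17A, 17B, 21A and 21B. All KO libraries were above all WT libraries, an order that 25.3% of the genes tested in SW480 showed. The log2 fold change was 0.76 (95% interval 0.58 to 0.95, adjusted p 3.5e-05). In HT29 the WT libraries spanned 4443 to 6882 and the KO libraries 4545 to 9099 (0.20, adjusted p 0.71), and in HCT116 3046 to 3908 and 2558 to 4045 (-0.04, adjusted p 0.86). The HT29 groups were split by clone rather than by genotype, with a difference of -0.77 between KO clones 38 and 28 (adjusted p 0.032, which 16% of all genes passed). The difference of the KO effects of HCT116 and SW480 was -0.81 (adjusted p 0.038), but it passed in 16 of 30 settings only, with adjusted p from 0.012 to 0.13. It was lost in edgeR, with the round as a block, with the clone as a random effect, and without any one of HCT116 KO 44A, KO 47A, KO 47B, WT 4B, WT 6A and WT 6B or SW480 KO 21A, KO 21B, WT 4A, WT 5A and WT 5B.

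ADAM9 and ADAM15 are broadly expressed members whose disintegrin domains bind integrins. ADAM9 (ENSG00000168615, chromosome 8, 38854273 to 38962964, plus strand) was the member called higher, and only in SW480. Its normalized counts were 2049.7, 2371, 2126 and 2604 in WT 4A, 4B, 5A and 5B, against 4719.9, 4835, 4304 and 4678 in KO 17A, 17B, 21A and 21B. The WT libraries all lay below the KO libraries, as for 25.3% of genes tested in SW480, and the means were 2288 ± 252 and 4634 ± 230.1 (SD, n = 4 each). The log2 fold change of 1.02 (SE 0.084, 95% interval 0.84 to 1.21, adjusted p 4.3e-06) was just over the threshold of 1. It fell under 1 without WT 4A (0.97), WT 5A (0.99), KO clone 17 (0.98) or WT clone 4 (0.98), with an adjusted p that stayed under 0.05 each time.

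In HT29 the direction of ADAM9 was the other one and the groups overlapped. WT 11A, 11B, 40A and 40B held 2877, 2323, 6652 and 6699 normalized counts, and KO 28A, 28B, 38A and 38B held 2780.1, 3645, 2907 and 659. WT clone 40 was thus the high one, and library KO 38B the low one. The log2 fold change was -0.98 (95% interval -2.29 to 0.32, adjusted p 0.43), and -0.43 without KO 38B. HCT116 libraries spanned 4172 to 5862 for WT and 5224 to 7402 for KO (0.35, adjusted p 0.13). The KO effects of HT29 and SW480 differed by -2.01 (95% interval -3.13 to -0.89, adjusted p 0.012), and this call held without KO 38B but not with the clone as a random effect.

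ADAM15 (ENSG00000143537, chromosome 1, 155023042 to 155035251, plus strand) was higher in KO libraries by its mean in each line, by 0.26 in HT29 (adjusted p 0.43), 0.49 in HCT116 (adjusted p 0.18) and 0.31 in SW480 (adjusted p 0.0055). SW480 WT libraries spanned 2818 to 3348 and KO libraries 3476 to 3929, without overlap, an order that 25.3% of genes tested showed there. With the rounds averaged, however, the adjusted p was 0.0996, and without WT clone 5 it was 0.056. In HCT116 the KO libraries fell apart by clone, with 6285 and 5884 in KO 44A and 44B but 3331 and 3221 in KO 47A and 47B, beside 2771 to 3979.6 in WT libraries. KO clone 47 minus KO clone 44 was -0.89 on the log2 scale (adjusted p 0.0029). DCST1 shares 306 bases of exon with ADAM15 on the same strand, and had a mean of 7.3 normalized counts.

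ADAM8 and ADAM28 are best known from leukocytes and have been described in tumor cells. ADAM8 (ENSG00000151651, chromosome 10, 135075924 to 135090372, minus strand) was expressed in HT29 and stayed low in the other lines, at 17.1 to 62.2 normalized counts in HCT116 and 34.4 to 65.6 in SW480. In HT29 it varied with the clone. WT clones held 394 and 451 (11A and 11B) and 777 and 1203 (40A and 40B), whereas KO clones held 3105 and 2793 (28A and 28B) and 916 and 1103 (38A and 38B). KO clone 28 stood above all other clones, and KO clone 38 overlapped WT clone 40. The log2 fold change was 1.43 (95% interval 0.31 to 2.55), which did not pass after adjustment (adjusted p 0.19). The clone differences did pass, with 1.20 between WT clones 40 and 11 (adjusted p 0.023) and -1.55 between KO clones 38 and 28 (adjusted p 0.0052). Of all genes 7.58% and 12.5% were called in these comparisons, or 9.02% and 16% by the adjusted p alone. DESeq2 called ADAM8 higher in KO than in WT libraries (1.45, adjusted p 0.042), and so did limma without KO clone 38 (2.20, adjusted p 0.037). The order with every KO library above every WT library, which 8.31% of genes showed in HT29 and 10.9% in HCT116, was not seen for ADAM8.

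ADAM28 (ENSG00000042980, chromosome 8, 24151582 to 24216527, plus strand) was detected at a low level in HT29, with 94.1, 64.9, 16.8 and 6.26 normalized counts in WT 11A, 11B, 40A and 40B and 122, 109, 43.6 and 49.3 in KO 28A, 28B, 38A and 38B. The log2 fold change of 1.30 did not pass the test (adjusted p 0.44), and WT clone 40 minus WT clone 11 was -2.80 (adjusted p 0.0084). Without WT clone 40 the difference was -0.09. In SW480 the 4 WT libraries held 0 reads and the KO libraries 13.2, 6.42, 43.0 and 18.2 normalized counts in 17A, 17B, 21A and 21B, which are 7 to 46 reads. Taken against 3 reads in each WT library, which a count of 0 allows, the mean of the SW480 KO libraries was at least 6.95-fold higher. The gene did not pass the filter there, and with no filter on low values limma called it higher (adjusted p 9.4e-06). With 0 reads in every WT library it entered that fit through the KO libraries only and could not have come out lower. In HCT116 its highest value of 19.3 came from KO 47A, and the other 7 libraries had 0 to 1.97.

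ADAM22 has no active protease site and acts as a receptor for the LGI proteins at synapses. Its gene (ENSG00000008277) lies on chromosome 7 (87563458 to 87832204, plus strand). By p it came next to ADAM19 among the members in HT29, with 626, 403, 696 and 557 normalized counts in WT 11A, 11B, 40A and 40B and 322, 327, 313 and 224 in KO 28A, 28B, 38A and 38B. All 4 KO libraries lay below the WT libraries, as they did for 4.71% of the genes tested in HT29. The log2 fold change of -0.93 (SE 0.22, 95% interval -1.44 to -0.42) missed both thresholds (adjusted p 0.072), and without KO 38B it was -0.80. In SW480 ADAM22 moved the other way, from 651, 697, 921 and 865 in WT 4A, 4B, 5A and 5B to 1115, 1023, 1062 and 1068 in KO 17A, 17B, 21A and 21B. There the log2 fold change was 0.46 (adjusted p 0.0064, or 0.102 with the rounds averaged), with WT clone 5 above WT clone 4 by 0.41 (adjusted p 0.0062). HCT116 libraries spanned 314 to 375 for WT and 286 to 506 for KO (0.11, adjusted p 0.73).

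The KO effect on ADAM22 differed between HT29 and HCT116 by -1.04 (95% interval -1.56 to -0.52, adjusted p 0.012) and between HT29 and SW480 by -1.39 (95% interval -1.91 to -0.87, adjusted p 0.00035), the former lost with the clone as a random effect. Over all genes 7.25% and 15.8% passed these tests, and 13.2% passed the test of HCT116 against SW480. For ADAM19 no difference of the KO effect between lines passed the test. HT29 minus HCT116 was 1.20 (95% interval -0.17 to 2.56, adjusted p 0.32), HT29 minus SW480 0.06 (95% interval -1.30 to 1.43, adjusted p 0.97) and HCT116 minus SW480 -1.13 (95% interval -2.50 to 0.23, adjusted p 0.31). The intervals are wide and leave room for differences of more than 1 on the log2 scale.

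Members could be compared with each other by normalized count per kb of the canonical transcript. In WT cells ADAM15 led in HT29 with 1558 per kb and in SW480 with 1024, and ADAM9 led in HCT116 with 1208, followed by ADAM15 with 1089.8. ADAM19 had rank 3 of 9 in HT29 with 557 per kb, rank 4 in HCT116 with 287 and rank 2 in SW480 with 981. In KO cells its rank was 6 in HT29 (108 per kb), 6 in HCT116 (20.7 per kb) and 5 in SW480 (177 per kb). Its share of the summed level per kb of the 9 genes went from 12.8% in WT to 2.63% in KO cells of HT29, from 9.0% to 0.55% in HCT116 and from 31.1% to 5.2% in SW480. The summed level of the 9 genes itself was 4357 per kb in WT and 4101 in KO cells of HT29. It was 3185 and 3760.4 for HCT116, and 3155 and 3400.4 for SW480.

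Among WT cells the lines differed in several members, where 37.3% of all genes were called between HT29 and HCT116, 40% between HT29 and SW480 and 39.9% between HCT116 and SW480. ADAM8 was higher in HT29 than in HCT116 by 4.14 (adjusted p 1.3e-08) and than in SW480 by 3.85 (adjusted p 3.4e-08), whereas HCT116 and SW480 did not pass the test (-0.29, adjusted p 0.57). ADAM28 had 6.26 to 94.1 normalized counts in the HT29 WT libraries, beside 1 read in the 4 HCT116 WT libraries together and 0 in those of SW480. Its fitted differences are not given, since no WT library of HCT116 or SW480 reached the 10 normalized counts of the filter. For ADAM19 the order was SW480, HT29 and HCT116. HCT116 minus SW480 was -2.17 (adjusted p 0.00035), HT29 minus HCT116 1.31 (adjusted p 0.019) and HT29 minus SW480 -0.86, which did not pass the test (adjusted p 0.12). The call between HT29 and HCT116 was lost in edgeR, with the round as a block and without HCT116 WT 6A, HCT116 WT 6B or HT29 WT 40A, over a range of 0.83 to 1.73. ADAM22 was lower in HCT116, with -1.16 for HCT116 minus SW480 (adjusted p 5.8e-06), ADAM9 was higher in HCT116 than in SW480 by 1.11 (adjusted p 0.015), and ADAM10 was higher in HT29 than in SW480 by 1.06 (adjusted p 2.7e-05). The ADAM9 call was lost with the round as a block or the clone as a random effect, and the ADAM10 call without HT29 WT 40A or 40B. ADAM15 and ADAM17 were called in none of these 3 comparisons.

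The genes most like ADAM19 across the 24 libraries, after the mean of each line was taken off, were AXIN2 (Pearson r 0.91), CTNNB1 (0.91), BMP4 (0.91), FAM117B (0.87) and E2F5 (0.86) of 13027 genes compared. The libraries share the split into KO and WT, and these values describe it. The members tested in all 3 lines lay between -0.42 for ADAM15 and 0.14 for ADAM17. Among neighbors that start within 1 Mb of the start of ADAM19, 0 of 7 were called in HT29 and 0 of 6 in HCT116. Of all genes tested 2.3% and 5.06% were called there in either direction, so counts of 0 among so few genes say little. In SW480 3 of 9 were called lower, namely CYFIP2 (-1.77), NIPAL4 (-1.47) and PPP1R2B (-1.35), and 1 higher, HAVCR2 (1.18). Of all genes tested in SW480 6.76% were called lower and 10.7% higher. PPP1R2B and, near ADAM9, RNF5P1 resemble other genes of their families, so that reads may have been split between copies. CYFIP2 shares 62 bases of exon with ADAM19 on the opposite strand. Around ADAM9, 0 of 12 neighbors in HT29 and 0 of 15 in HCT116 were called. In SW480 RNF5P1 (-1.15) was called lower and PLEKHA2 (1.01) higher among 15, beside the same shares of all genes.

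The rest of the family and the genes around it were followed in named lists. Their counts of genes called lower and higher stand beside 0.402% and 1.9% of all genes tested for HT29, 1.89% and 3.17% for HCT116, and 6.76% and 10.7% for SW480. These calls also take the rounds of a clone as separate samples, and no list gene is given with the rounds averaged or with a clone left out. Of 12 other ADAM genes 0 passed the filter in HT29, 3 in HCT116 and 2 in SW480, and ADAM23, another member without protease activity, was the only one called, lower in SW480 (136 ± 56.4 to 57.7 ± 29.4 normalized counts, SD, n = 4 each; log2 fold change -1.28, adjusted p 0.033). The secreted ADAMTS and ADAMTSL genes, 24 in all, were called lower and higher in 1 and 0 of 6 tested in HT29, 1 and 3 of 11 in HCT116, and 4 and 5 of 14 in SW480. ADAMTS14, a procollagen protease, was lower in HCT116 (-3.28) and in SW480 (-1.83). ADAMTS8 was lower in SW480, from 2375 ± 202 to 48.2 ± 28.9 (SD, n = 4 each), a log2 fold change of -5.80. ADAMTSL2 was lower in SW480 (-4.59). ADAMTSL1 was called higher there (0.919 to 4.83 in WT and 79.7 to 130.3 in KO libraries), having passed the filter through the KO libraries only. ADAMTS6 was lower in HT29 (-1.71, adjusted p 0.021) and higher in SW480 (3.01, adjusted p 7.4e-05). ADAMTS16 was higher in HCT116 (1.35, adjusted p 0.025) and in SW480 (1.84, adjusted p 9.6e-05). ADAMTSL4 (1.88, adjusted p 0.0057) and ADAMTS9 (1.64, adjusted p 0.00065) were higher in SW480.

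Genes for the maturation and traffic of ADAM proteins were mostly not called, with 0 lower and 1 higher of 12 in HT29, 0 and 1 of 13 in HCT116, and 3 and 1 of 13 in SW480. Their median log2 fold changes were 0.33, -0.10 and 0.14. In SW480 the convertases PCSK6 (-3.51) and PCSK5 (-1.88), which cut prodomains, and TSPAN33 (-1.93), a tetraspanin partner of ADAM10, were lower. The convertase FURIN was higher by the adjusted p alone in HCT116 (0.68, adjusted p 0.0024) and SW480 (0.36, adjusted p 0.0029), as was PCSK5 in HCT116 (0.80, adjusted p 0.0074). By the adjusted p alone 4 of the 13 genes were lower and 6 higher in SW480, beside 22.1% and 26.1% of all genes. TSPAN15, which directs ADAM10 to its substrates, was higher in HCT116 (1.12) and SW480 (1.81), and TSPAN5 was higher in HT29 (2.14). By the adjusted p alone TSPAN15 was also higher in HT29 (0.86, adjusted p 0.046), as were 2.08% of all genes. TSPAN5 went the other way in HCT116 (-0.68, adjusted p 0.020), where 5.93% of all genes were lower by the adjusted p alone. Of the inhibitors, 0 were lower and 1 of 3, 1 of 4 and 4 of 5 were higher in HT29, HCT116 and SW480, where 1.9%, 3.17% and 10.7% of all genes were. TIMP2 was the one in HT29 (3.28, adjusted p 0.043, with 114 to 834 normalized counts in WT and 2023 to 4557 in KO libraries) and in HCT116 (1.63, adjusted p 0.033). In SW480 these were TIMP4 (4.61), TIMP3 (3.68), TIMP1 (1.48) and RECK (1.001), the last just over the threshold. TIMP2 was higher there by the adjusted p alone (0.79, adjusted p 2.3e-05), as were 26.1% of all genes. TIMP3, the inhibitor of ADAM17 and of ADAM10, rose from 1541 ± 150.2 to 20709 ± 7509 normalized counts in SW480 (SD, n = 4 each). In HCT116 TIMP3 was at 160 to 224 in WT and 0 to 56.1 in KO libraries, without overlap, a difference of -4.53 that did not pass the test (adjusted p 0.059).

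Of the 11 ligands of the EGF family, which are shed by ADAM proteins, 8 passed the filter in SW480 and 8 were called higher in KO cells. BTC and NRG4 passed through the KO libraries only and so had to be higher. Of the 6 others 6 were called higher, against 10.7% of all genes, and their median log2 fold change was 2.02 beside -0.0042 over all genes. NRG1, a neuregulin, did not pass the filter there and lay the other way, with 6.76 to 13.8 normalized counts in WT and 0 to 0.934 in KO libraries. EREG rose from 30.6 ± 23.1 to 971 ± 365, TGFA from 1194 ± 44.5 to 4725 ± 591 and AREG from 21.9 ± 9.18 to 177 ± 26.5 (SD, n = 4 each). BTC was at 0.919 to 4.83 in WT and 189 to 255 in KO libraries. In HT29 1 of 7 was called higher, HBEGF (2.07, adjusted p 0.029), where 1.9% of all genes were called higher, and in HCT116 0 of 9, where 3.17% were. Of 18 other shed proteins 0 of 14 tested were called in HT29, 1 lower and 4 higher of 15 in HCT116, and 2 lower and 5 higher of 16 in SW480. In HCT116 KITLG, the ligand of KIT, fell by 5.23 on the log2 scale, from 35309 ± 5553 to 1061 ± 581 (SD, n = 4 each), and TNFRSF1A, IL6R, CD44 and CDH1 were higher by 1.17 to 1.32. In SW480 MET (4.69), CX3CL1 (4.28), L1CAM (2.83), DLL1 (1.73) and CD44 (1.30) were higher, and IL6R (-1.20) and CXCL16 (-1.14) lower. The paper reports that SW480 KO clones became senescent when cultured for long, unlike those of HT29 and HCT116. A part of this in the SW480 values was not tested.

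Partners of ADAM12, ADAM15, ADAM19 and ADAM22 were called lower and higher in 0 and 2 of 6 tested in HT29, 2 and 0 of 8 in HCT116 and 1 and 2 of 7 in SW480. SH3PXD2A, the podosome adaptor TKS5 that binds the tails of ADAM proteins, was called in each line but not in 1 direction, with 3.96 in HT29, -1.17 in HCT116 and 1.62 in SW480. SNX9, a sorting nexin, was higher in HT29 (1.44). LGI3 was lower in HCT116 (-2.14) and ITGA9 in SW480 (-1.08), and DLG4, the synaptic scaffold that holds ADAM22, was higher in SW480 (1.17). Of the WNT targets taken as a check of the pathway, 4 of 6 tested were called lower in HT29, 3 of 7 in HCT116 and 9 of 9 in SW480, beside 0.402%, 1.89% and 6.76% of all genes, and 0 were called higher. In SW480 ASCL2 and NOTUM passed the filter through the WT libraries only and so had to be lower, and of the 7 others 7 were called lower. AXIN2 was at -3.70, -5.25 and -4.74 in HT29, HCT116 and SW480. The ADAM19 differences lay between those of TCF7 (-1.96, -1.02 and -1.52) and AXIN2 in each line.

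**Figure D3:**
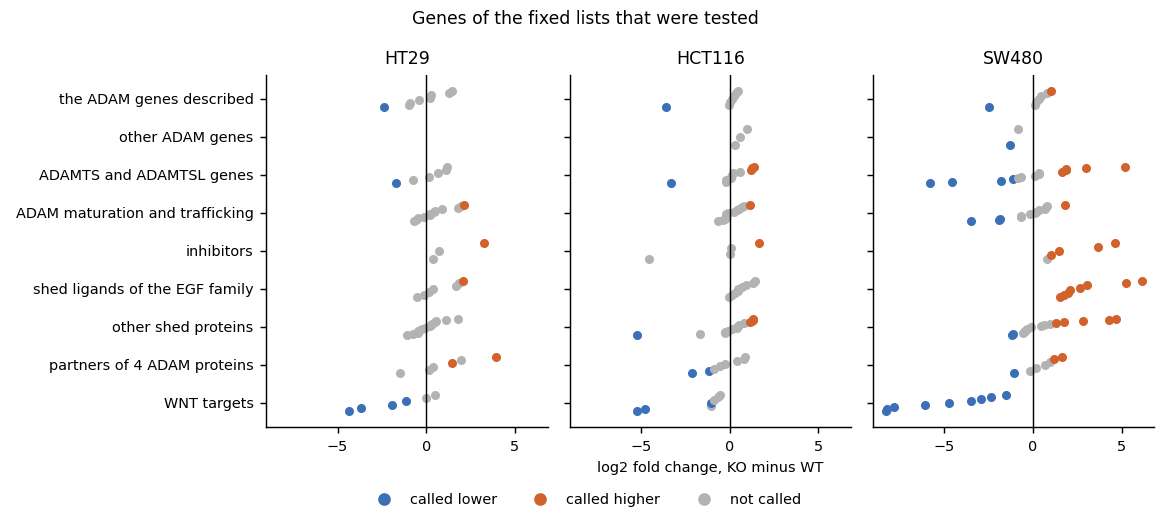
Log2 fold change KO minus WT of each gene tested in the lists around the ADAM proteins, with genes called lower in blue, called higher in orange and not called in grey. In SW480 all 8 EGF family ligands that passed the filter lie to the right, BTC and NRG4 among them, and in each line 1 of the ADAM genes described, ADAM19, lies to the left in blue.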

How the data were processed

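RNA of 24 cultures (3 lines, 2 WT and 2 KO clones each, rounds A and B) was made into TruSeq RNA v2 libraries, which keep no strand. Per the submitters' processing notes and the methods, the authors used STAR 2.7.5b for alignment (GRCh37) and featureCounts 2.0.1 for counting. The annotation release and strand setting are not given in the sources used here. The values deposited by the authors are signal, gene counts divided by 1 DESeq2 size factor per library, and 100% of values gave whole reads within 0.001. Because the values are not raw counts, limma 3.58.1 (trend, robust) was run on log2(value + 1) within each line, in place of edgeR, for genes with at least 10 in at least 4 of 8 libraries (4 of 24 across lines). Adjusted p-values are Benjamini-Hochberg over all genes tested, and n counts libraries, 2 per clone, so p-values measure the spread of 4 libraries from 2 clones. limma contrasts compared KO with WT, clones within a genotype, KO effects between lines and WT levels between lines. Alternatives used edgeR 4.0.16, DESeq2 1.42.0 (R 4.3.3), other pseudocounts, filters and scaling, clone and round terms, and left-out libraries and clones. The pipeline was tested on simulated data. Same-numbered rounds deviated together over 0.1 in 6 of 6 pairs in HCT116 (0.18 to 0.37), 2 of 6 in HT29 and 1 of 6 in SW480, so rounds paired samples in HCT116 only. Coordinates, exon overlaps and transcript lengths (Ensembl canonical) come from GENCODE 44 on GRCh37. Promoters come from RefSeq. Floors cover counting error only.

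The members, lists, markers and the rule for named genes were chosen with earlier results of these data known. The rule names the 9 members, CTNNB1, list genes called in at least 1 line (up to 8 a list by the largest absolute log2 fold change), called neighbors within 1 Mb and the 5 genes most like ADAM19. The deposited tables of DEGs, which hold fold changes and p-values of the authors' own comparisons, were not used here. Python 3.11.15, numpy 2.4.6, pandas 2.3.3 and matplotlib 3.10.9 served for tables and plots.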

Additional observations from a re-analysis of the deposited data

Results flagged for a closer look

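Of 49 groups of 4 libraries in which a member had more than 3 reads in a library, 3 held a library far from the other libraries of its group, and chance flags about 1 group in 20. ADAM17 was lowest in HCT116 WT 4A, with 934 normalized counts beside 1106 to 1119.9 in the other WT libraries of that line. ADAM22 was lowest in HT29 KO 38B, with 224 beside 313 to 327. ADAM28 was highest in HCT116 KO 47A, with 19.3 beside 0 to 1.97. KO 38B and KO 47A are the libraries that also stood apart over all genes. The part of this in the values was not tested.

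The effect of the KO differed between lines for 3 members by the interaction test in limma, which 7.25%, 15.8% and 13.2% of all genes passed for HT29 minus HCT116, HT29 minus SW480 and HCT116 minus SW480. For ADAM22 the difference was -1.04 for HT29 minus HCT116 (adjusted p 0.012) and -1.39 for HT29 minus SW480 (adjusted p 0.00035). Its KO libraries all lay below WT in HT29 and above WT in SW480, orders shown by 4.71% and 25.3% of genes tested. For ADAM9 it was -2.01 for HT29 minus SW480 (adjusted p 0.012). For ADAM10 it was -0.81 for HCT116 minus SW480 (adjusted p 0.038), a call lost in edgeR, with the round as a block and with the clone as a random effect.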

How the results depend on the processing

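The direction of ADAM19 was the same under all 22 alternatives in each line, with log2 fold changes of -2.76 to -2.06 in HT29, -4.70 to -2.52 in HCT116 and -2.59 to -2.35 in SW480. Its call was lost with the rounds of a clone averaged in HT29 (-2.40, adjusted p 0.36; 0 members called) and HCT116 (-3.57, adjusted p 0.32; 0 members called), in HT29 without WT clone 40 (-2.19, adjusted p 0.0502; 0 called), and in HCT116 with no filter on low values (-3.61, adjusted p 0.06; 0 called) or without KO clone 47 (-2.92, adjusted p 0.096; 0 called). Averaging leaves 2 samples a group. For the other settings the cause was not tested. In HT29 2 members were called, ADAM8 beside ADAM19, by DESeq2 and without KO clone 38. In SW480 1 was called without KO clone 17 or WT clone 4. With no filter 3 were called there, including ADAM28, which had 0 reads in WT libraries and could not have come out lower. Leaving out each library in turn gave 1 call in HT29 and in HCT116, and 1 to 2 in SW480, with ADAM19 at -2.67 to -2.25, -4.10 to -3.19 and -2.53 to -2.43. For the difference of the KO effects it gave 1 call for HT29 against HCT116, 2 to 3 for HT29 against SW480 and 0 to 1 for HCT116 against SW480. With the clone as a random effect these were 0, 1 and 0, and edgeR gave 0 for HCT116 against SW480.

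Values that did not pass a test changed sign in some settings. In HT29 ADAM10 was -0.19 without KO clone 28 and -0.024 without WT clone 11, and ADAM28 -0.095 without WT clone 40. In HCT116 ADAM8 was -0.35 without WT clone 6, and leaving out single libraries took it from -0.081 to 0.52. ADAM10 there was 0.13 without KO clone 47 and 0.048 without WT clone 6, and -0.14 to 0.081 over single libraries. ADAM17 was -0.0057 with TMM scaling, -0.14 without KO clone 44, -0.050 without WT clone 4 and -0.11 to 0.12 over single libraries. ADAM22 was -0.10 without KO clone 44 and -0.040 to 0.23 over single libraries. In SW480 ADAM8 was -0.0024 without WT clone 4.

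With the round as a replicate block, ADAM19 was called in HT29 (adjusted p 0.0054), HCT116 (adjusted p 0.028) and SW480, and the counts of members called for KO against WT stayed at 1, 1 and 2. The block moved 2 counts, with ADAM8 called beside ADAM19 between the HCT116 WT clones (2 called), and 0 called for the KO effects of HCT116 against SW480. In HT29 and SW480 the samples share only a round letter. Depth limits ADAM12 in every line (0 to 9 reads a library) and ADAM28 in HCT116 and SW480. Within these lines they were tested only with no filter, which called ADAM28 in SW480, where its WT libraries had 0 reads.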
